A study of Petromyzon marinus with 6 samples.

Results

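A set of 135 transcript units of Petromyzon marinus, the sea lamprey, which is a vertebrate without jaws, was close to undetected in whole embryos until day 2.5 after fertilization and was counted in quantity on day 3. A unit, here called a component, is the sum of all assembled contigs whose identifiers differ only in the final sequence number, and the 145913 contigs formed 87262 components. Levels are in CPM, the summed expected count of a component per 1000000 expected counts of its library. A component entered the set when it had under 0.5 CPM on days 1, 2 and 2.5 and 5 CPM or more on day 3. The members were thus chosen by their measured CPM in those 4 libraries, whose values are a description, and days 4 and 5 were outside the choice.

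The study followed gene expression in early lamprey embryos with 6 paired-end RNA-seq libraries. Each library held whole embryos of a single stage (days 1, 2 and 2.5, and then days 3 to 5), and the labels give no treatment or strain, nor the number of embryos or spawnings. With a single library per stage nothing checks a difference between stages against replicates, and all intervals cover counting error only. The libraries held between 15503408 (day 5) and 21910029 (day 1) expected counts, so that 3 counts, the upper limit that a count of 0 allows, stand for 0.137 CPM on day 1, 0.171 on day 2, 0.163 on day 2.5, 0.144 on day 3, 0.151 on day 4 and 0.194 on day 5. A whole embryo holds several cell types, so fewer cells of a type and less RNA per cell cannot be told apart.

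Early animal embryos live on RNA that the mother stored in the egg. Their own genome is switched on during or after cleavage, in the maternal-to-zygotic transition, and transcripts made by the embryo then join or replace the maternal ones in successive waves. Some embryonic transcripts are made briefly around this transition, whereas others belong to tissues that form later and stay. The sea lamprey also discards part of its genome from the cells of the body during early development. Transcripts that are hardly counted in the first days are of interest in that setting because a store of maternal RNA does not mask when they begin to accumulate. The files give contig identifiers and no gene names, and 0 of the 145913 identifiers matched any of the 45433 genes that the reference table names, so no member could be tied to a gene or a function.

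Before day 3 the members were at or near the counting limit. In sum they had 173 counts on day 1, 342 on day 2 and 428 on day 2.5, against 42421 on day 3. The median member had 0 counts on day 1, 2 on day 2, 3 on day 2.5 and 193 on day 3. On day 1, 70 of the 135 members had 0 counts, on day 2 it was 38 and on day 2.5 it was 33. In all 3 early libraries together, 17 members had 0 counts, and 49 had fewer than 3 counts in each. Of the 118 members with any early count, 55 had their highest early CPM on day 2.5, 50 on day 2 and 13 on day 1. As a share of the whole library the members went from 0.000791% on day 1 to 0.00194% on day 2, 0.00233% on day 2.5 and 0.204% on day 3.

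The limits cut through a continuous range. The lowest members had 5.00 and 5.01 CPM on day 3, while the highest components just below the limit had 4.86 and 4.85 CPM. The highest early level among the members was 0.489 CPM, and the components just outside began at 0.511 CPM. Between 5 and 6 CPM on day 3 there were 25 members, and 38 components with the same early limits lay between 4 and 5 CPM. A further 70 components reached the day 3 limit with a highest early level from 0.5 to 1 CPM. Of the 87262 components, 52569 were under the early limit at all 3 early days, and the 135 members are those among them that reached the day 3 limit.

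On day 3 the members ranged from 5.00 to 68.7 CPM, with a median of 9.29 and quartiles of 6.67 and 16.01. On day 4 the median was 17.4 CPM (quartiles 6.35 and 35.04, highest 315), and on day 5 it was 13.1 CPM (quartiles 4.55 and 43.4, highest 259). The lower end on day 3 was set by the limit of 5 CPM, and no such limit applied on days 4 and 5. In sum they took 0.497% of the library on day 4 and 0.454% on day 5, more than on day 3. A level per length, the authors' TPM summed by component, gave medians of 16.4 TPM on day 3, 28.2 TPM on day 4 and 21.4 TPM on day 5. The 10 most abundant members held 26.3% of the members' counts on day 3, 40.5% on day 4 and 40.9% on day 5.

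Most members stayed. At all 3 late days 96 of the 135 had 5 CPM or more, and on day 5 123 still had 0.5 CPM or more. The share under 0.5 CPM on day 5 was 8.89% of the members. It was smaller, 0.965%, among the other components at 5 CPM or more on day 3, which were not matched to the members by level. On day 4, 13 members had 100 CPM or more, and 10 did on day 5. By the library in which they were highest, 42 members belonged to day 3, 62 to day 4 and 31 to day 5. This split was not computed for other components. Those highest on day 3 had a median of 8.54 CPM there, 3.48 on day 4 and 1.93 on day 5. Those highest on day 4 went from a median of 11.6 CPM on day 3 to 31.0 on day 4 and 21.4 on day 5. Those highest on day 5 went from 8.31 CPM to 27.6 and 48.3. The medians of the 3 groups lay between 8.31 and 11.6 CPM on day 3 and between 1.93 and 48.3 CPM on day 5. The groups were sorted by these same values, so the sorting itself sets them apart on day 5. The wider range there is a description only.

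**Figure D1:**
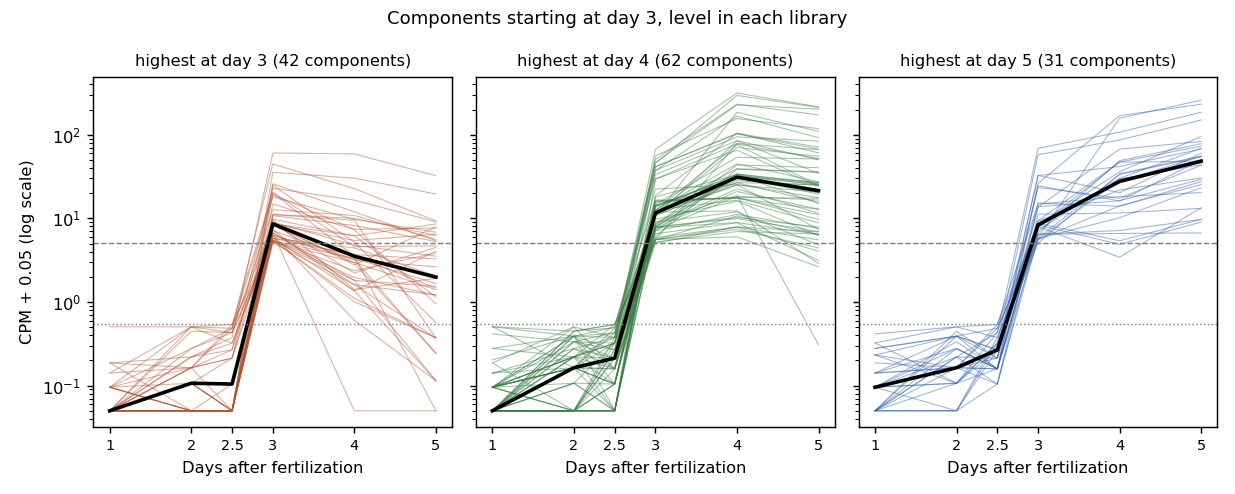
Level of each of the 135 components in the 6 libraries (CPM + 0.05 on a log axis, days after fertilization on the x axis), split by the late day at which the component was highest; thin lines are components, black lines are medians, and the dotted and dashed lines mark the limits of 0.5 and 5 CPM. All lie under the dotted line until day 2.5 by the choice of members, and the medians on day 5 were 1.93, 21.4 and 48.3 CPM from left to right. The sorting by highest day itself sets these medians apart.

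The component with the largest rise from day 3 to day 5 was lcl|comp208804_c1, a single contig of 1271 nt. It had 0 counts on day 1, 3 on day 2, 1 on day 2.5, 121 on day 3, 3125 on day 4 and 4014 on day 5. Those are 5.83 CPM on day 3 (exact Poisson interval 4.83 to 6.96), 157 on day 4 (152 to 163) and 259 on day 5 (251 to 267), which made it the most abundant member on day 5. It entered the set near the lower limit and was 27.03-fold higher on day 4 than on day 3 (exact Clopper-Pearson interval 22.5 to 32.7) and a further 1.64-fold higher on day 5 (1.57 to 1.72).

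The second was lcl|comp289516_c8, of 2 contigs, the longest 1308 nt. Its counts were 1, 0 and 3 on days 1, 2 and 2.5, then 114 on day 3, 1560 on day 4 and 1026 on day 5. It was 14.3-fold higher on day 4 than on day 3 (11.8 to 17.5) and had 66.2 CPM on day 5 against 78.6 on day 4. By expected counts its contigs changed rank: the longer had 1297 of the day 4 counts and 460 of those on day 5, the shorter 262 and 566. These are estimates, and how fragments common to both contigs were divided was not examined.

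At the other end stood lcl|comp271999_c0, a single contig of 1667 nt. It had 0 counts in each of the 3 early libraries, 414 on day 3, 69 on day 4 and 0 on day 5. It was 5.74-fold lower on day 4 than on day 3 (4.43 to 7.51) and 103-fold lower on day 5 than on day 3 when its day 5 level is set to 3 counts, with an exact interval that begins at 83.4-fold. The second, lcl|comp238323_c0, a single contig of 3734 nt, also had 0 counts on days 1, 2 and 2.5, then 519 on day 3, 102 on day 4 and 8 on day 5. It was 48.4-fold lower on day 5 than on day 3 (24.4 to 113). Both were thus counted on day 3, at a lower level on day 4, and at or near 0 before and after.

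**Figure D2:**
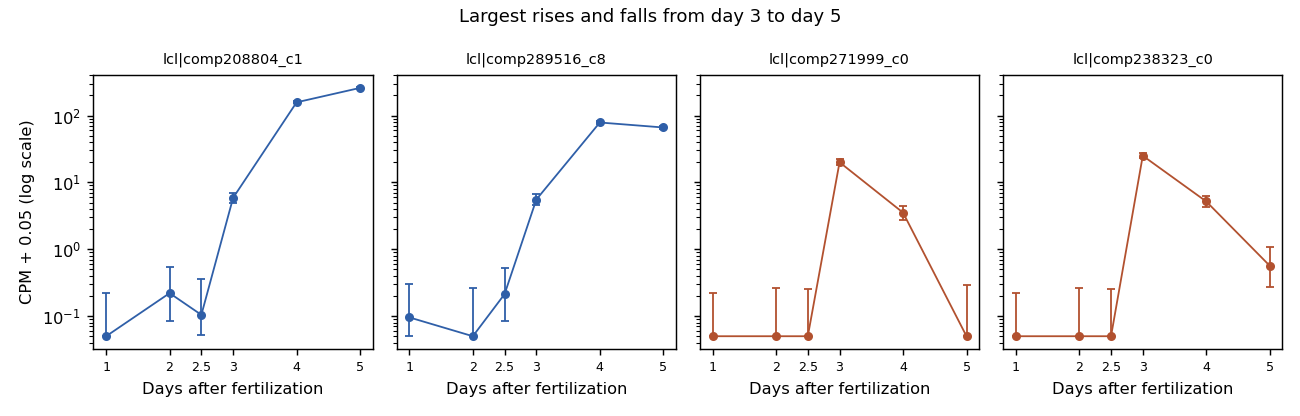
CPM + 0.05 (log axis) by day after fertilization for the 2 members with the largest rise and the 2 with the largest fall from day 3 to day 5; points are single libraries and bars are exact 95% Poisson counting intervals. The first reached 259 CPM on day 5, and the third was at 0 counts before day 3 and on day 5.

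To count such steps, a component was called higher or lower in the later of 2 libraries if its fold on the log2(CPM + 0.5) scale passed 2-fold and the exact 95% counting interval of the fold excluded 1. From day 4 to day 5, the step that the choice of members did not touch, 9 of the 135 members were higher (6.67%) and 24 were lower (17.8%), and 102 passed in neither direction. Of all 31119 tested components, those with a total of 60 or more counts, 10.2% were higher and 7.02% were lower in this step. The share of lower calls among the members was above that background. The share of higher calls was below it, but close to the 6.65% of the other components at 5 CPM or more on day 3 (6.28% lower). The median log2 fold was -0.41 for the 134 members with 3 or more counts in either library and 0.07 for all tested components. Without the added 0.5 CPM, and with counts of 0 set to 3 counts, the members' median was -0.44. With DESeq2 size factors in place of library sums, 7 members were higher and 39 lower, beside 7.71% and 11.5% of all tested components. The background thus also moved toward lower calls. The medians were -0.65 for members and -0.12 for all tested components, and 15.2% of the called members were higher against 27.3%. At 4-fold, 0 members were higher and 9 lower, beside 1.34% and 0.585% of all tested components. With a pseudocount of 5 CPM, which shrinks the folds of low components, 6 of the 135 were higher and 8 lower, beside 1.89% and 0.897%. At that setting the members' shares of higher and of lower calls were both above the background, so the lower share of higher calls depended on the pseudocount. With 1 library per stage no difference between members and other components could be tested.

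In the step from day 3 to day 4, 54 members (40%) were called higher and 23 (17%) lower, beside 10.8% and 16.2% of all tested components. At 4-fold, 25 were higher and 8 lower, beside 2.1% and 2.2%. Over both steps, from day 3 to day 5, 45 members were called higher and 33 lower, beside 17.4% and 18.2% of all tested components, and at 4-fold 21 and 20, beside 4.76% and 4.47%. Day 3 chose the members, so nothing is read from these counts. The other 11602 components at 5 CPM or more on day 3, those with 0.5 CPM or more in at least 1 early library, were higher from day 3 to day 4 in 6.47% and lower in 23.1% of cases. From day 3 to day 5 they were higher in 10.2% and lower in 21.8%.

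**Figure D3:**
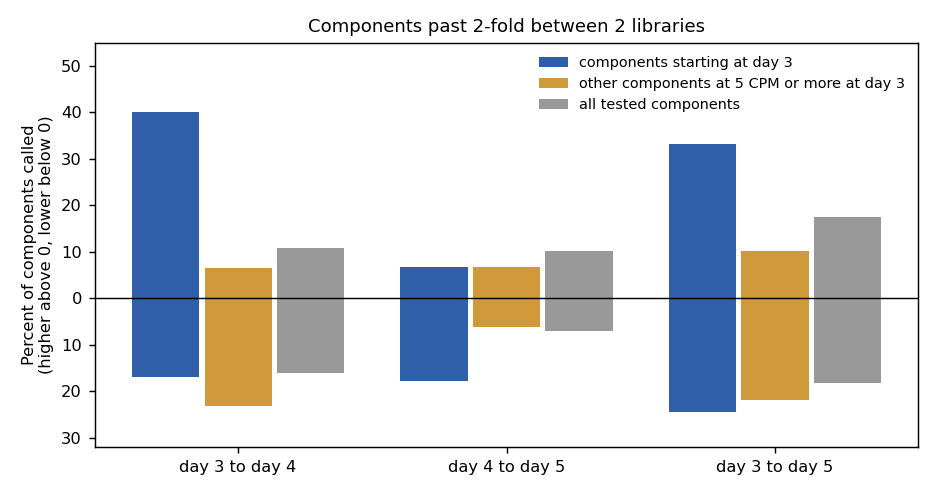
Percent of components called 2-fold higher (above 0) or lower (below 0) in each step, for the components starting on day 3, the other components at 5 CPM or more on day 3, and all tested components; each bar compares 1 library with 1 library. From day 4 to day 5 the lower calls are 17.8% of the members and 7.02% of all tested components.

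All 9 combinations of the 2 steps occurred, and they are given as a description, since the first step uses day 3. Their shares over all tested components were not computed, so no combination is read as particular to the members. In 47 members the level was higher on day 4 and then past 2-fold in neither direction, and in 43 neither step passed. In 12 members the level was lower on day 4 and then passed in neither direction, in 11 it was lower only in the second step, and in 8 it was lower in both. Both steps were higher in 2 members, higher then lower in 5, neither then higher in 4, and lower then higher in 3.

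**Figure D4:**
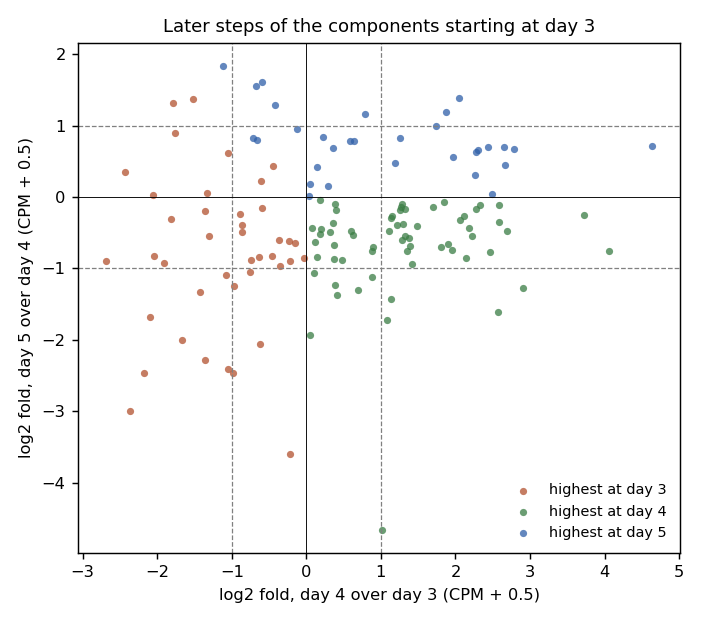
log2 fold of CPM + 0.5 from day 3 to day 4 (x axis) and from day 4 to day 5 (y axis) for 134 members, coloured by their highest day; dashed lines mark 2-fold, and the member with 0 counts on days 4 and 5 is left out. The largest later rise is 1.84 and the largest later fall is -4.66 on the y axis.

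The order of the members by level changed less after day 4 than before it. Across the 135 members, Spearman's rho between the CPM on days 4 and 5 was 0.902, against 0.548 between days 3 and 4 and 0.459 between days 3 and 5. These are descriptions across components, which share libraries, and the day 3 range was cut off at 5 CPM by the choice. Of the 10 most abundant members on day 4, 9 were also among the 10 on day 5, and 6 were among the 10 at all 3 days. The most abundant member on day 3, a single contig of 1937 nt chosen after its values were seen, had 1, 1 and 7 counts on days 1, 2 and 2.5 and then 68.7 CPM on day 3, 107 on day 4 and 186 on day 5. The most abundant on day 4, with 23 contigs, went from 67.0 CPM on day 3 to 315 on day 4 and 215 on day 5. Per length the highest level on day 3 was 189 TPM, in a contig of 511 nt that was lower at each later day, with 95.1 TPM on day 4 and 37.8 TPM on day 5.

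A small group left again. On day 5, 12 of the 135 members (8.89%) were back under 0.5 CPM. Among all tested components, which include many that were low at every stage, 16.6% were under that level on day 5, and among the other components at 5 CPM or more on day 3 it was 0.965%. In sum the 12 had 2 counts on day 1, 11 on day 2, 9 on day 2.5, 2035 on day 3, 889 on day 4 and 33 on day 5. Their median went from 6.89 CPM on day 3 to 1.66 on day 4 and 0.194 on day 5. On day 4, 11 of the 12 still had 3 or more counts, and 1 already had 0. A member that was higher on day 4 first, chosen after its values were seen, had 186 counts on day 3, 370 on day 4 and 4 on day 5, and was 72.3-fold lower on day 5 than on day 4 (28.0 to 267). By the 2-fold rule 10 of the 12 were lower on day 4 than on day 3 and 8 were lower on day 5 than on day 4. The 12 were chosen for 5 CPM or more on day 3 and under 0.5 CPM on day 5. A fall between those days was thus fixed by the choice, and these calls describe only in which step it came.

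Some further features of these 12 were compared with those of the other members, as counts with no test. All 12 were single contigs, as were 66 of the other 123 members. All 12 were also the only component of their assembly cluster (the components whose identifiers share the first number), as were 58 of the other 123. On day 3, 10 of the 12 had under 10 CPM, as had 61 of the other 123. In 7 of the 12 there were 0 counts in the 3 early libraries together, against 10 of the other 123. Their longest contig had a median of 1708 nt (quartiles 1338 and 2092), beside 1254 nt (876 and 1820) in the others. Seen from the early side, 7 of the 17 members with 0 early counts were under 0.5 CPM on day 5, and 10 of them were highest on day 3. Of the 118 with an early count, 5 were under 0.5 CPM on day 5 and 32 were highest on day 3. The remaining members with 0 early counts reached up to 51.2 CPM on day 5, in a contig of 1093 nt that had 14.6 CPM on day 3 and 53.6 on day 4.

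In contig make-up the members lay nearer to all tested components than to the other components at 5 CPM or more on day 3. The sets were not matched by level. Single contigs made up 78 of the 135 members (57.8%), 57% of all tested components and 47.8% of the other components at 5 CPM or more on day 3. The longest contig had a median of 1297 nt in members (range 511 to 5422), 1293 nt in all tested components and 1991 nt in the other components at 5 CPM or more on day 3. The member with the most contigs had 27. In the 57 members of 2 or more contigs, the leading contig held a median of 73.5% of the component's counts on day 3, 77.4% on day 4 and 78.6% on day 5. It was the same contig on days 3 and 4 in 50 of them (87.7%), on days 4 and 5 in 49 (86%), and at all 3 days in 42. On days 3 and 5 it was the same in 73.7%. For 6060 other components of 2 or more contigs at 5 CPM or more on day 3, these shares were 78%, 79.4% and 71.5%. Those 6060 all had counts on days 4 and 5.

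Some members came from the same assembly cluster. Components whose identifiers share the first number were taken as 1 assembly cluster, from the form of the identifiers alone, and the 135 members lay in 124 clusters, of which 11 held 2 members each. In 11 of these 11 pairs both members had the same highest day. No such share was computed over all pairs of members, and fragments shared within a pair were not examined. Their log2 folds from day 3 to day 5 differed by a median of 0.098 within pairs, beside 1.84 over all 9045 pairs of members. In the most abundant pair, 1 member had 50.7 CPM on day 3, 232 on day 4 and 172 on day 5, and the other had 67.0, 315 and 215. In another pair both members were lowest on day 4, with 5.76, 1.31 and 4.00 CPM in 1 and 8.71, 2.72 and 7.87 in the other. The counts of calls above hold both members of each pair. With the members of a cluster summed and counted once, an alternative chosen after seeing the data, 8 of 124 were called higher and 24 lower between days 4 and 5. The share over all summed clusters was not computed.

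**Figure D5:**
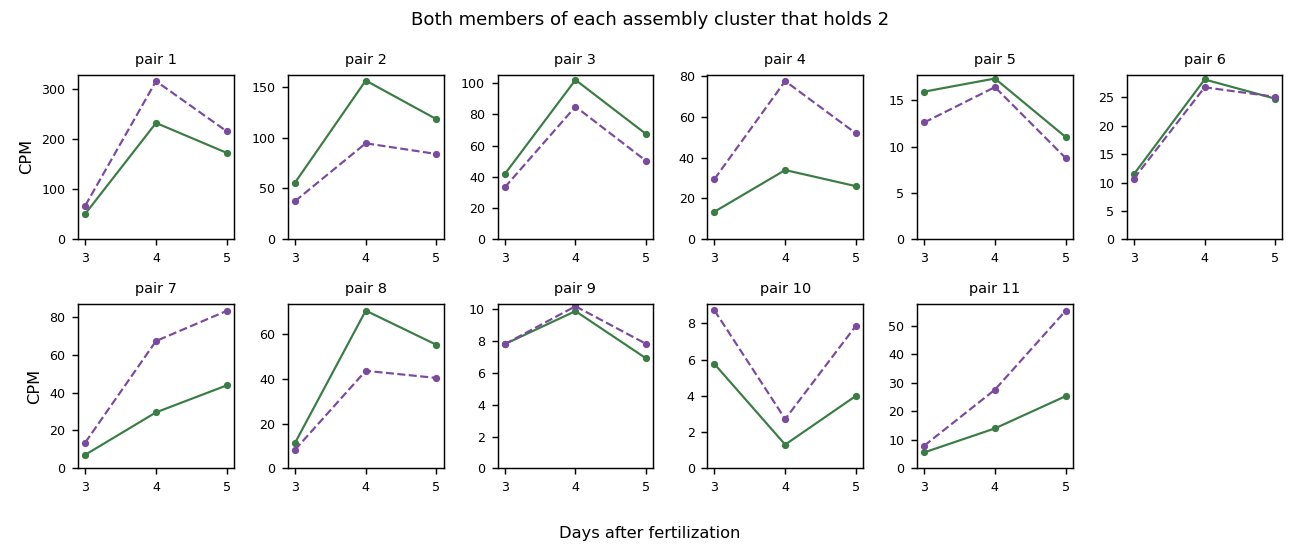
CPM (linear axes that start at 0) on days 3, 4 and 5 for the 2 members of each of the 11 assembly clusters that hold 2; each point is 1 library, and solid and dashed lines are the 2 members. The highest day is the same for both members in 11 of 11 pairs.

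Some members belonged to clusters that were already counted early. In 50 of the 124 clusters there were other components, 131 in all, that were not members. Summed over the whole cluster, 77 clusters stayed under 0.5 CPM on days 1, 2 and 2.5, and they held 81 of the members. The other 54 members lay in clusters with 0.5 CPM or more in at least 1 early library. These sums include the members themselves. In 1 such cluster, for instance, both members had 0.284 CPM on day 2 and together passed 0.5 CPM. How much of the early level came from components that were not members was not computed. Among these 54 was lcl|comp289516_c8, the member with the second largest rise, whereas the other members named above were among the 81. Of these 54, 8 were highest on day 3, 34 on day 4 and 12 on day 5, and 0 were under 0.5 CPM on day 5. Of the 81, 34 were highest on day 3, 28 on day 4 and 19 on day 5, and 12 were under 0.5 CPM on day 5. In 70 of the 124 clusters the member was the only component, and all 12 were of this kind. The early level of such a cluster is that of its member, so the choice of members placed the 12 among the 81. The 0 of 54 follows from this and is no separate result. The median level of the 54 was 13.7 CPM on day 3, 27.5 on day 4 and 24.9 on day 5, and that of the 81 was 8.28, 10.8 and 7.87 CPM.

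Some members had summed counts that were not whole numbers. Fragments divided only among contigs of 1 component give a whole sum, apart from rounding of each contig's count to 2 decimals. The sum missed a whole number by more than such rounding allows (0.005 per contig) in 55 of the 135 members on day 3, 69 on day 4 and 61 on day 5. Those are 40.7%, 51.1% and 45.2%, beside 28.8%, 27.8% and 25.7% of the tested components with a count. These shares include small misses, such as sums of 464.03 on day 3 and 503.97 on day 4 in 1 member. The amount of sharing was not computed. The tested components include many under 5 CPM on day 3. No share was computed for components of like level, so a part played by level was not tested. The levels of such members are uncertain to the extent that close copies exchanged fragments. This holds for both named members that fell. The sum of lcl|comp271999_c0 was 414.32 on day 3, and that of lcl|comp238323_c0 was 518.72 on day 3 and 101.82 on day 4. It also holds for lcl|comp289516_c8, which rose and had 1559.7 on day 4. Their counting intervals do not cover this. Applied to single contigs, the same limits chose 375, of which 122 lay in members and 253 in components whose summed level was 0.5 CPM or more in at least 1 early library.

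The same form of rule applied a stage earlier or later gave smaller sets. With under 0.5 CPM on days 1 and 2 and 5 CPM or more on day 2.5 there were 41 components, and their median was 6.04 CPM on day 2.5, 0.144 on day 3, 1.71 on day 4 and 3.16 on day 5. They were thus nearly uncounted in the day 3 library, in which the components described here were chosen to be high. With under 0.5 CPM on days 1 to 3 and 5 CPM or more on day 4 there were 45, with a median of 6.56 CPM on day 4 and 5.61 on day 5. Between days 4 and 5, which their rule did not use, 11 of the 41 were called higher and 0 lower, beside 10.2% and 7.02% of all tested components. Single contigs made up 61% of the 41 and 66.7% of the 45, and their median longest contigs were 936 and 1468 nt.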

How the data were processed

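The deposited expected counts were made by the authors with RSEM, as listed per the submitters' processing notes. Neither its version nor an aligner or assembler is named in the sources used here. The authors' expected counts are, per the file headers, estimated fragments per contig without normalization, the deposited TPM values are scaled per effective length and served as an alternative, and the deposited FPKM values were not used. Expected counts were summed by component and divided by the library sum of expected counts (CPM), and rounded to whole numbers for counting intervals only. Components with a total of 60 or more counts were tested (31119 of 87262). Folds use a pseudocount of 0.5 CPM. No test across samples was possible with 1 library per stage. The call rule (2-fold with an exact 95% interval) was run on simulated Poisson counts, which have only the counting error that the interval assumes. They held no variation between embryos and no shared fragments, so they cannot show how the rule behaves with those. At most 2 identifiers that rose and 2 that fell from day 3 to day 5 are printed, those with the largest folds. Members, limits and lists were chosen with earlier results of these data known. Alternatives were edgeR 4.0.16 TMM factors, DESeq2 1.42.0 size factors, the deposited TPM, other limits, a 4-fold limit, a pseudocount of 5 CPM, contigs, clusters and no filter. Values were computed with Python 3.11.15 (pandas 2.3.3, numpy 2.4.6, scipy 1.17.1, matplotlib 3.10.9) and R 4.3.3.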

Additional observations from a re-analysis of the deposited data

How the results depend on the processing

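Of 71 values under the alternatives, 35 stayed within 1.5 times the value reported and 36 moved. Each value was scored alone, so this score cannot show a reversed balance of higher and lower calls. Among the 375 contigs chosen by the same limits the balance was the other way in 2 comparisons. These contigs are another set, since 253 of them lay in components that are not members. Day 3 chose them too, and no shares over all contigs were computed, so nothing is read from the difference. From day 3 to day 4, 46.7% of the called contigs were higher, against 70.1% of the called members. From day 3 to day 5 it was 44.3% against 57.7%. The 135 members became 208 with the deposited TPM (82 shared), 77 with an early limit of 0.25 CPM, 205 with 1 CPM, 49 with fewer than 3 counts at days 1, 2 and 2.5, 255 with a day 3 limit of 3 CPM, 64 with 10 CPM, 375 as contigs and 86 as assembly clusters, the last chosen after seeing the data. With TMM they were 169, with DESeq2 size factors 186, and without the day 1, 2 or 2.5 library in the rule 139, 155 and 182. Higher and lower calls were 25 and 8 (day 3 to day 4), 0 and 9 (day 4 to day 5) and 21 and 20 (day 3 to day 5) at 4-fold. They were 30 and 5, 3 and 12, and 23 and 12 among the 64 members at 10 CPM or more at day 3, and 99 and 113, 56 and 80, and 105 and 132 among 375 contigs. With a pseudocount of 5 CPM the higher calls were 46, 6 and 36 and the lower calls 6, 8 and 17, and with DESeq2 size factors those from day 4 to day 5 were 39. With members of 1 cluster summed, added after seeing the data, the calls were 46 and 22, 8 and 24, and 39 and 33. No shares were computed over all summed clusters or over components at the level of the 64 members. For the pseudocount of 5 CPM the share over all tested components was computed from day 4 to day 5 only. Nothing is read from the counts that lack such a share. Members with fewer than 3 counts at day 5 numbered 5, against 12 under 0.5 CPM. With no filter 11.1%, 7.98% and 15.6% of all components were called in either direction, against 27%, 17.2% and 35.5%. The smaller member sets hold fewer components by construction; the other causes were not tested. No paired analysis was possible because no stage had a second library. A count under 3 does not tell absence from a low level.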
